A study of Homo sapiens with 2 samples.

Results

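The 26S proteasome is the ATP-dependent protease that degrades ubiquitin-tagged proteins in the cytosol and nucleus. A barrel-shaped 20S core, built of alpha subunits in its outer rings and beta subunits in its inner rings, holds the proteolytic sites inside, and a 19S regulator made of an ATPase base and a lid recognises, unfolds and feeds in the substrate. Cells raise transcription of many of these genes together when proteolysis falls short, a response known to run through the transcription factor NFE2L1, and interferon gamma exchanges the catalytic beta subunits for those of the immunoproteasome, which shapes peptides for antigen presentation. Described here are the genes of the proteasome subunits and their assembly factors, chosen by symbol: names starting with PSMA, PSMB, PSMC, PSMD, PSME, PSMF or PSMG and a number, without hyphenated symbols and pseudogenes. This rule found 49 of the 26257 gene symbols in the data, and no measured value entered it.

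RNA came from HCT-116, an established human colorectal carcinoma cell line. The data are 1 library of cells given lysophosphatidic acid (LPA), a signalling phospholipid, at 10 µM for 24 h after serum starvation, and 1 library of untreated cells, called control. Whether the control cells were starved too is not given in the sources used here. Levels are FPKM, fragment numbers corrected for transcript length and sequencing depth, summed over the isoforms of a gene, so that they can be set side by side between genes of different length. With 1 library per group there is no replicate, no test and no p-value, and every difference below is between these 2 libraries only.

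The files hold no read counts. The lowest FPKM steps put the depth at about 16100000 fragments in the LPA and 17700000 in the control library, at which 1 FPKM on a 2 kb transcript stands for about 32.2 and 35.3 fragments. Of 9 markers of colon epithelial cells, 7 had a mean of at least 1 FPKM, with VIL1 listed at 0 in both libraries. Of 10 immune markers only CD68 did, at 2.85 FPKM in the LPA and 2.64 FPKM in the control library, and PTPRC, the pan-leukocyte marker, was listed at 0 in both, as was MS4A1. Of 7 fibroblast markers COL1A1 did, at 4.28 and 5.75 FPKM, while COL1A2, DCN and LUM were listed at 0 in both, and none of 4 endothelial markers did.

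Of the 49 genes, 46 had a mean of at least 1 FPKM over both libraries, and each of these was at 8.76 FPKM or more in the LPA and 10.9 FPKM or more in the control library. The 3 others were PSMB8, PSMA8, the testis form of an alpha subunit, and PSMB11, the thymus form of a catalytic subunit, and the last 2 were listed at 0 in both libraries. The genes were abundant: the median of their mean FPKM was 87.3, against 9.02 over the 11688 genes with a mean of at least 1 FPKM, and lay at the 92.3rd percentile of those. Together the 49 genes held 0.845% of all FPKM in the LPA and 0.819% in the control library, or 5990 and 5875 FPKM. One of the 49, PSMC3IP, carries a proteasome symbol only because its product binds PSMC3. It is a factor of meiotic recombination and is included in the counts over all members below.

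Differences are given as log2 ratios of LPA over control after adding 1 FPKM to both, a scale that makes differences of low genes look smaller. None of the 46 genes was 1.5-fold apart, a limit passed by 1.45% of all genes upward, 1.54% downward and 2.99% in either direction. At 1.2-fold 6 of the 46 were higher in the LPA library and 5 lower, where 12.6% and 14.5% of all genes were. As a share, 23.9% of the 46 genes and 27.1% of all genes passed 1.2-fold in either direction, so the proteasome genes passed it about as often as genes in general. Without PSMC3IP, 5 of 45 genes were 1.2-fold higher and 5 lower, or 22.2%, 24 were above 0, and the median log2 ratio was 0.06. The median log2 ratio was 0.07 over the 46 genes and 0.00091 over all genes, 25 of the 46 were above 0 (50.2% of all genes were), and the robust SD was 0.25 against 0.24 over all genes. Among genes with a mean of at least 20 FPKM, 5 of 42 proteasome genes were 1.2-fold higher and 4 lower, where 16.3% and 11.6% of 3483 genes were, and the medians were 0.07 and 0.04. For 45 of the 46 genes the deposited FPKM bounds of the leading isoform overlapped between the libraries, the exception being PSMD5. Among all 16999 isoforms with a mean of at least 1 FPKM, 4.61% had separate bounds. The share over the leading isoforms of all genes is not given here. The deposited bounds come from the authors' software, and their level is not stated in the file.

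**Figure D1:**
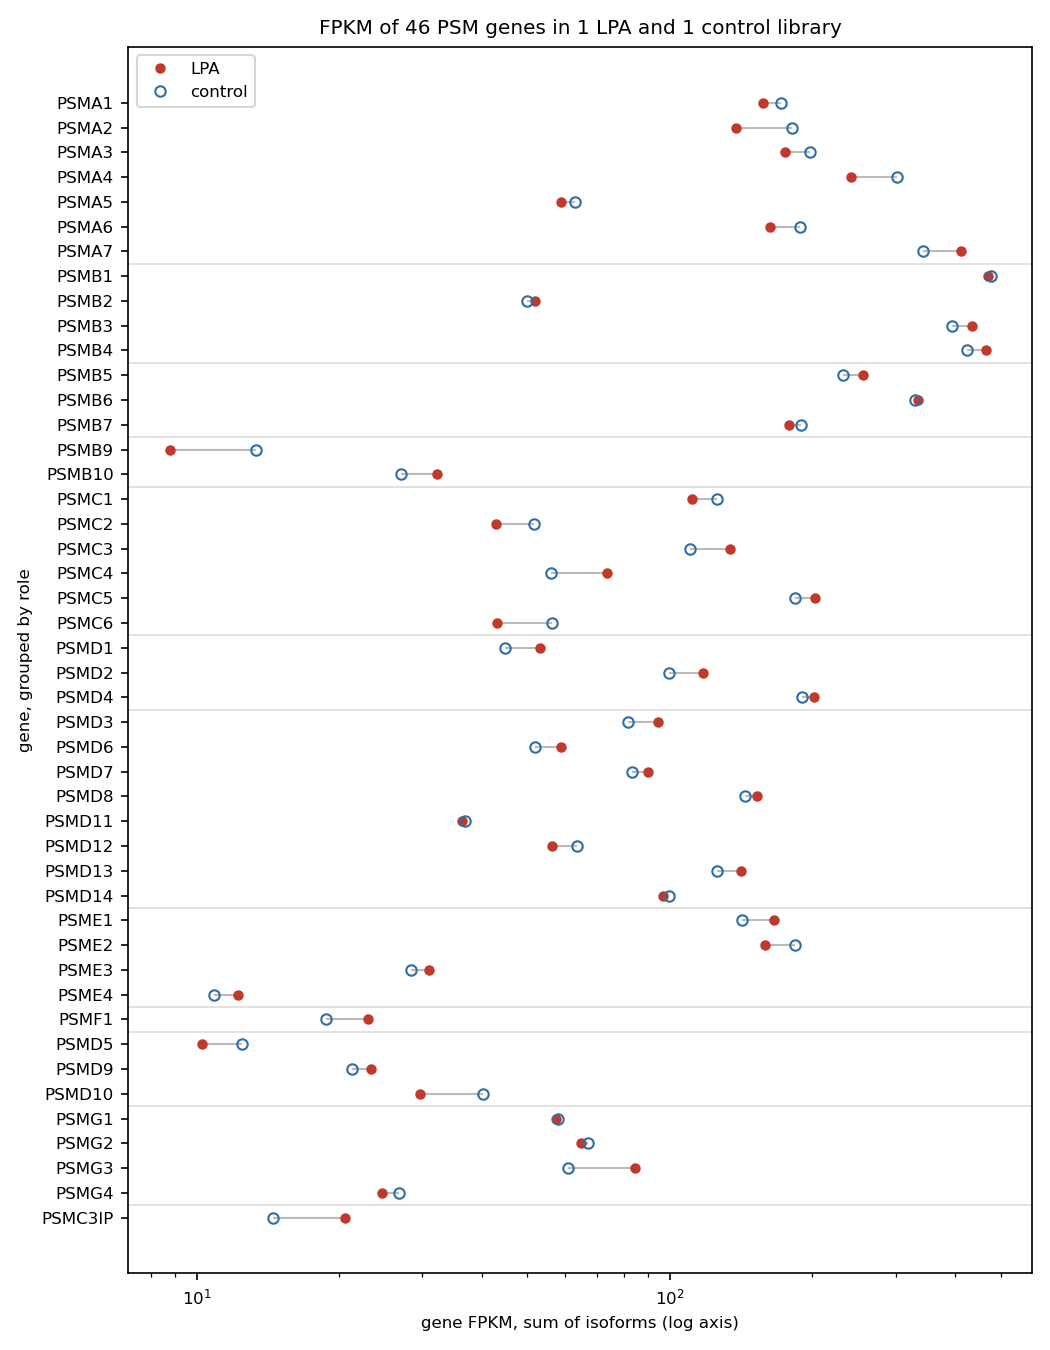
FPKM of each of the 46 proteasome genes with a mean of at least 1 FPKM, grouped by role, on a log axis; filled points are the LPA library and open points the control library. The genes span 8.76 FPKM (PSMB9) to 471 FPKM (PSMB1) in the LPA library. The axis shows FPKM with nothing added. After adding 1 FPKM to both values no gene is 1.5-fold apart, while PSMB9 passes that limit with 0.1 FPKM added.

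The alpha ring of the core, which gates the entry to the barrel, had 6 of 7 measured genes lower in the LPA library, with a median log2 ratio of -0.18. PSMA2 (chr7:42916861-42932206, hg38) stood at 138 FPKM in the LPA and 181 FPKM in the control library (log2 ratio -0.39), and PSMA4 at 241 and 302 FPKM (-0.32); both were past 1.2-fold. PSMA6 had 163 and 189 FPKM, PSMA3 175 and 198 FPKM, PSMA1 157 and 172 FPKM and PSMA5 58.9 and 63.1 FPKM, all within 1.2-fold. PSMA7 went the other way and past 1.2-fold, with 412 FPKM in the LPA and 343 FPKM in the control library (0.27). PSMA7 was thus the most abundant alpha gene in both libraries, and the highest and lowest gene of the ring were 7.0-fold apart in the LPA and 5.43-fold apart in the control library. The ring contains its subunits in equal number, while their transcripts were not at equal level in either library. PSMA2 has 3 and PSMA6 has 4 pseudogenes in GENCODE 29, which can share reads with them.

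The beta subunits of the constitutive core differed less, with 5 of 7 genes higher in the LPA library, a median of 0.06 and none past 1.2-fold. The noncatalytic PSMB1, the most abundant of all 49 genes, had 471 FPKM in the LPA and 477 FPKM in the control library. PSMB4 had 465 and 425 FPKM, PSMB3 434 and 395 FPKM, and PSMB2 51.8 and 49.8 FPKM. Of the catalytic subunits, PSMB5, which carries the chymotrypsin-like site and is the main target of bortezomib, had 256 FPKM in the LPA and 233 FPKM in the control library (0.14). PSMB6, with the caspase-like site, had 335 and 329 FPKM (0.03), and PSMB7, with the trypsin-like site, 179 and 189 FPKM (-0.08).

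The immunoproteasome subunits, which replace these 3 in new particles, were far less abundant and differed from each other. PSMB9, which takes the place of PSMB6, had 8.76 FPKM in the LPA and 13.3 FPKM in the control library, and its log2 ratio of -0.55 was the lowest of the 46 genes and below the 2.5th percentile of all genes (-0.51). With a pseudocount of 0.1 in place of 1 it was -0.60, past 1.5-fold. Its deposited bounds were 5.65 to 11.9 FPKM in the LPA and 9.04 to 17.6 FPKM in the control library and overlapped, and its reads came to about 148 and 247 fragments. PSMB10, which takes the place of PSMB7, went the other way within 1.2-fold, with 32.2 and 27.0 FPKM (0.24). PSMB8, which takes the place of PSMB5, was at 0.468 and 0.522 FPKM, about 9.52 and 13.5 fragments, so a difference between the libraries was not detectable at this depth. Constitutive subunits exceeded their counterparts in both libraries: PSMB6 was 38.2-fold above PSMB9 in the LPA and 24.6-fold in the control library, and PSMB7 was 5.56-fold and 7.0-fold above PSMB10. The genes for PSMB8 and PSMB9 lie in the major histocompatibility region of chromosome 6 (PSMB9 at chr6:32854161-32859851, hg38), which the deposited table repeats on alternate contigs; their 24 isoforms on such contigs, those of PSMB3 included, were listed at 0 in both libraries.

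The 19S base holds the ring of ATPases that unfolds substrates, and its 6 genes were split, with 3 higher and 3 lower and a median of -0.02. PSMC4 (chr19:39971005-39981764, hg38) had 73.7 FPKM in the LPA and 56.1 FPKM in the control library (0.39), and PSMC3 134 and 110 FPKM (0.28), both past 1.2-fold, while PSMC5 had 203 and 184 FPKM (0.14). PSMC6 had 43.0 and 56.4 FPKM (-0.38), past 1.2-fold, and PSMC2 43.0 and 51.6 FPKM (-0.26) and PSMC1 111 and 126 FPKM (-0.17), within it. The log2 ratios within this ring spanned 0.77, against 0.66 in the alpha ring, 0.38 in the lid and 0.89 over the 7 assembly chaperones. PSMC1 has 13 pseudogenes in GENCODE 29, which can share reads with it. The locus of PSMC5 overlaps that of FTSJ3, which had 30.9 FPKM in the LPA and 21.1 FPKM in the control library, and the kit did not mark strand.

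The 3 other base subunits were higher in the LPA library and within 1.2-fold. The scaffold genes PSMD1 and PSMD2 had 53.1 and 44.8 FPKM and 118 and 99.4 FPKM in the LPA and control library, each with a log2 ratio of 0.24, and the ubiquitin receptor gene PSMD4 had 202 and 190 FPKM (0.08). In the lid, which removes ubiquitin chains, 5 of 8 genes were above 0 and none passed 1.2-fold, with a median of 0.10. Its highest ratio was that of PSMD3, at 94.5 FPKM in the LPA and 81.6 FPKM in the control library (0.21), and its lowest that of PSMD12, at 56.5 and 63.6 FPKM (-0.17). PSMD8 was the most abundant gene of the lid, at 153 and 144 FPKM, and PSMD11 the least, at 36.4 and 36.9 FPKM. PSMD14, the deubiquitinase of the lid, had 96.9 and 99.6 FPKM (-0.04).

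The genes of the alternative caps of the core were within 1.2-fold. PSME1 and PSME2 encode the subunits of PA28, a cap of the core that interferon gamma induces, and lie close together on chromosome 14. The locus of PSME1 overlaps that of EMC9, which had 24.0 FPKM in the LPA and 24.6 FPKM in the control library. PSME1 had 166 FPKM in the LPA and 142 FPKM in the control library (0.23), while PSME2 had 159 and 184 FPKM (-0.21), so that PSME1 was the higher of the pair in the LPA and PSME2 in the control library. PSME3, the nuclear form of this cap, had 31.0 and 28.4 FPKM (0.12), and PSME4, which encodes the cap PA200, had 12.3 and 10.9 FPKM (0.16). PSMF1, which encodes the regulator PI31, had 23.0 FPKM in the LPA and 18.8 FPKM in the control library (0.28) and was past 1.2-fold.

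Among the assembly chaperones, which do not stay in the finished particle, 2 of 7 genes were higher in the LPA library and 5 lower. PSMG3 (chr7:1567334-1570032, hg38) had 84.2 FPKM in the LPA and 61.0 FPKM in the control library, and its log2 ratio of 0.46 was the highest of the proteasome genes proper. Its partner in the dimer that helps build the alpha ring, PSMG4, had 24.7 and 26.7 FPKM (-0.11), and the other dimer, PSMG1 with 57.5 and 57.9 FPKM and PSMG2 with 64.8 and 67.1 FPKM, stayed near 0 (-0.01 and -0.05). Of the chaperones of the ATPase ring, PSMD10 (chrX:108084205-108091644, hg38), also known as gankyrin, had 29.7 FPKM in the LPA and 40.3 FPKM in the control library (-0.43), past 1.2-fold, while PSMC4, the ATPase it binds, was higher. PSMD5, which binds PSMC2, had 10.3 and 12.5 FPKM (-0.26), and PSMD9, which binds PSMC3, had 23.3 and 21.3 FPKM (0.12). PSMD10 has 3 pseudogenes in GENCODE 29. The antisense gene PSMG3-AS1 stood at 0.534 FPKM in the LPA and 0.583 FPKM in the control library, small beside PSMG3. PSMC3IP, the recombination factor, had 20.5 and 14.5 FPKM (0.48). Its locus overlaps that of MLX, which had 20.2 FPKM in the LPA and 21.6 FPKM in the control library, and the kit did not mark strand.

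**Figure D2:**
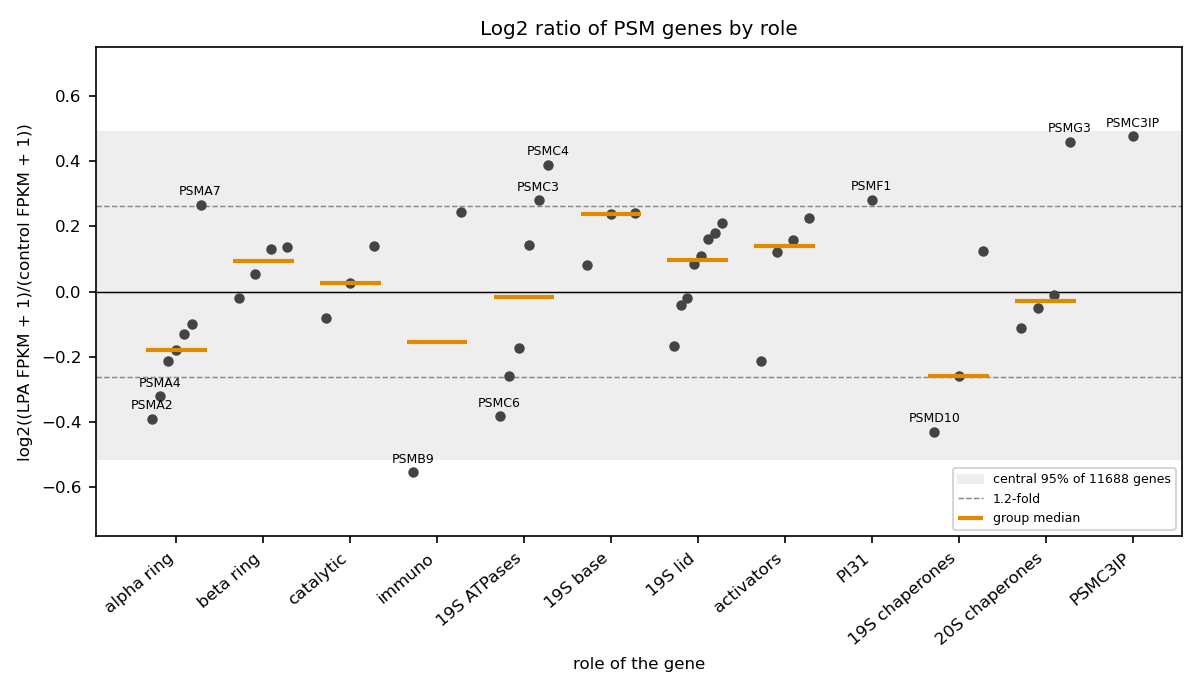
Log2 ratio of LPA over control of the 46 genes by role; each point is a gene, the orange line is the median of a role, the grey band is the central 95% of 11688 genes (-0.51 to 0.49) and dashed lines mark 1.2-fold. All points but PSMB9 lie inside the band, and 6 of 7 alpha ring genes lie below 0.

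GC content moved with these ratios. The leading transcript, matched to GENCODE 29, had a GC value for 45 of the 46 genes (not for PSMA4), and over these Spearman's rho between GC content and log2 ratio was 0.49 and Pearson's r 0.50. The points share both libraries. Over 11261 genes in the same libraries Spearman's rho was 0.30. The 25 genes above 0 had a median GC content of 52.2%, and the 20 genes below 0 one of 45.3%. Low GC and lower FPKM in the LPA library met in PSMA2 (39.9% GC), PSMC6 (38.1%), PSMC2 (38.5%) and PSMD10 (41.5%), and high GC with higher FPKM in PSMG3 (58.5%), PSMC3 (56.2%) and PSMC4 (55.2%). PSMB9, at 56.1% GC, and PSME2, at 57.5%, were lower in the LPA library at high GC content, and PSME4, at 41.5% GC, and PSMD1, at 44.2%, were higher at low GC content. After adjustment of the log2 ratios for GC content and length across all genes, an alternative added after the values were seen, 5 genes were 1.2-fold higher and 3 lower. The share of all genes past 1.2-fold after this adjustment is not given here, so these counts have no background to be set against. PSMA4 had no adjusted value, and the median of the 6 other alpha ring genes was -0.08. The lower genes were PSMB9, PSMD10 (-0.33) and PSME2 (-0.27), the last of which was within 1.2-fold before. PSMD1, at 0.31, was newly past 1.2-fold upward, while PSMA7, at 0.18, and PSMC3, at 0.19, were within it. PSMA2 then had -0.25 and PSMC6 -0.21, both within 1.2-fold, PSMA5 and PSMD12 were above 0, at 0.11 and 0.007, and PSMB9 had -0.64. What produced the relation was not tested, and with 1 library per group treatment and library cannot be told apart.

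**Figure D3:**
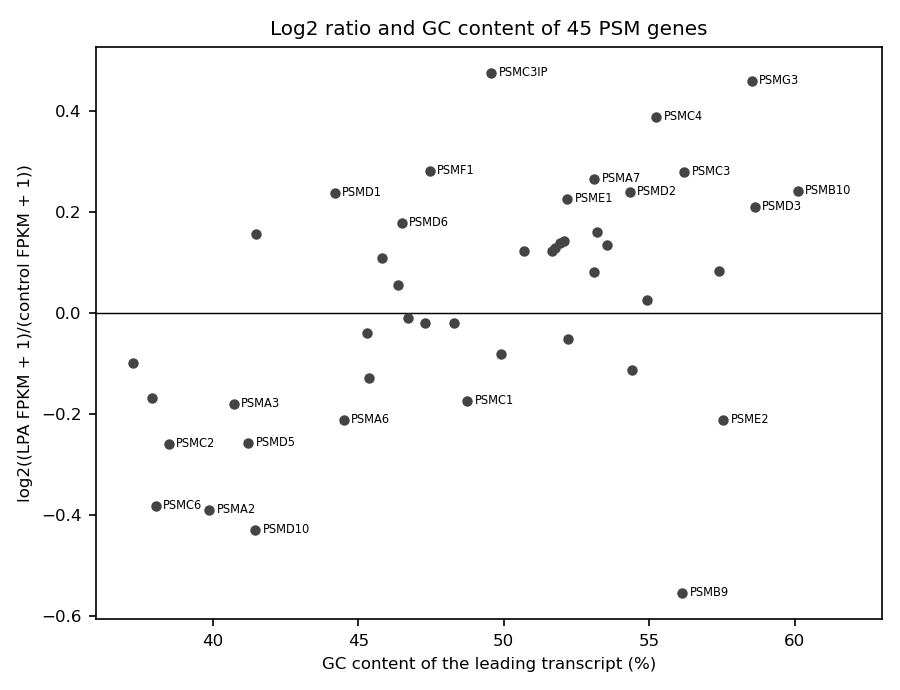
Log2 ratio of LPA over control (vertical axis) against GC content of the leading transcript in percent (horizontal axis) for 45 genes, with names for genes farther from 0. The genes lowest in GC content, from PSMA5 (37.2%) to PSMA3 (40.7%), lie below 0, the highest, PSMG3 (58.5%), PSMD3 (58.6%) and PSMB10 (60.1%), lie above 0, and PSMB9 lies far below the other GC-rich genes.

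Isoform values turned on fewer reads than gene sums. The table lists 138 isoforms for the 49 genes, and 78 of them, from 46 genes, had a mean of at least 1 FPKM. Of these 78, 9 passed 1.5-fold upward and 7 downward; the 16 make up 20.5% of them, where 18.1% of 16999 isoforms passed that limit. With the further demand of separate deposited bounds 2 were counted upward and 1 downward, where 2.48% and 2.12% of all isoforms passed (4.61% in either direction, and 3.99% at 2-fold). Another isoform led in the LPA than in the control library in 2 of 28 genes with more than 1 isoform above 0, PSMD5 and PSMC3IP, where 16.8% of 6262 such genes did.

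In PSMD5 (chr9:120816054-120843021, hg38), the chaperone gene, one of 2 forms was near 0 in the control library. The RefSeq transcript NM_005047, of 3479 nt, had 5.10 FPKM in the LPA library (bounds 3.04 to 7.16) and 12.5 FPKM in the control library (bounds 8.96 to 16.0). NM_001270427, of 3350 nt, had 5.19 FPKM in the LPA library (bounds 3.04 to 7.34) and 0.00272 FPKM in the control library (upper bound 0.0646). The shorter form thus held 50.5% of PSMD5 FPKM in the LPA and 0.0218% in the control library, and the bounds of both forms were separate between the libraries. Both forms are similar in length and share most of their sequence, so their split is an estimate of the authors' software. The antisense gene PSMD5-AS1 had 1.73 FPKM in the LPA and 1.85 FPKM in the control library. In PSMC3IP, NM_001256014 had 9.29 FPKM in the LPA (bounds 3.38 to 15.2) and 0.00337 FPKM in the control library (upper bound 0.112), and NM_016556 had 0.602 FPKM and 5.08 FPKM, with bounds that overlapped.

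Shifts in other genes had overlapping bounds. PSMD2, a scaffold gene of the base, had its reference form NM_002808 at 54.6 FPKM in the LPA and 61.2 FPKM in the control library, while NM_001278708 had 49.8 and 34.7 FPKM and NM_001278709 13.3 and 3.47 FPKM. The higher PSMD2 sum in the LPA library thus lay in the shorter forms. In PSMD1 the leading transcript of both libraries was NR_034059, a record RefSeq classes as noncoding, with 35.1 FPKM in the LPA and 24.3 FPKM in the control library, while the coding NM_002807 had 18.0 and 19.7 FPKM. PSMB5 had its main form NM_002797 at 179 and 181 FPKM and the shorter NM_001130725 at 73.1 and 48.4 FPKM. Both forms of PSMG3 were higher in the LPA library, NM_001134340 at 67.3 and 46.8 FPKM and NM_032302 at 16.9 and 14.1 FPKM. In PSMG4 the main form NM_001128591 had 20.9 and 18.2 FPKM and the 449 nt form NM_001135750 had 1.74 and 6.87 FPKM, so the lower gene sum lay in the short form.

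**Figure D4:**
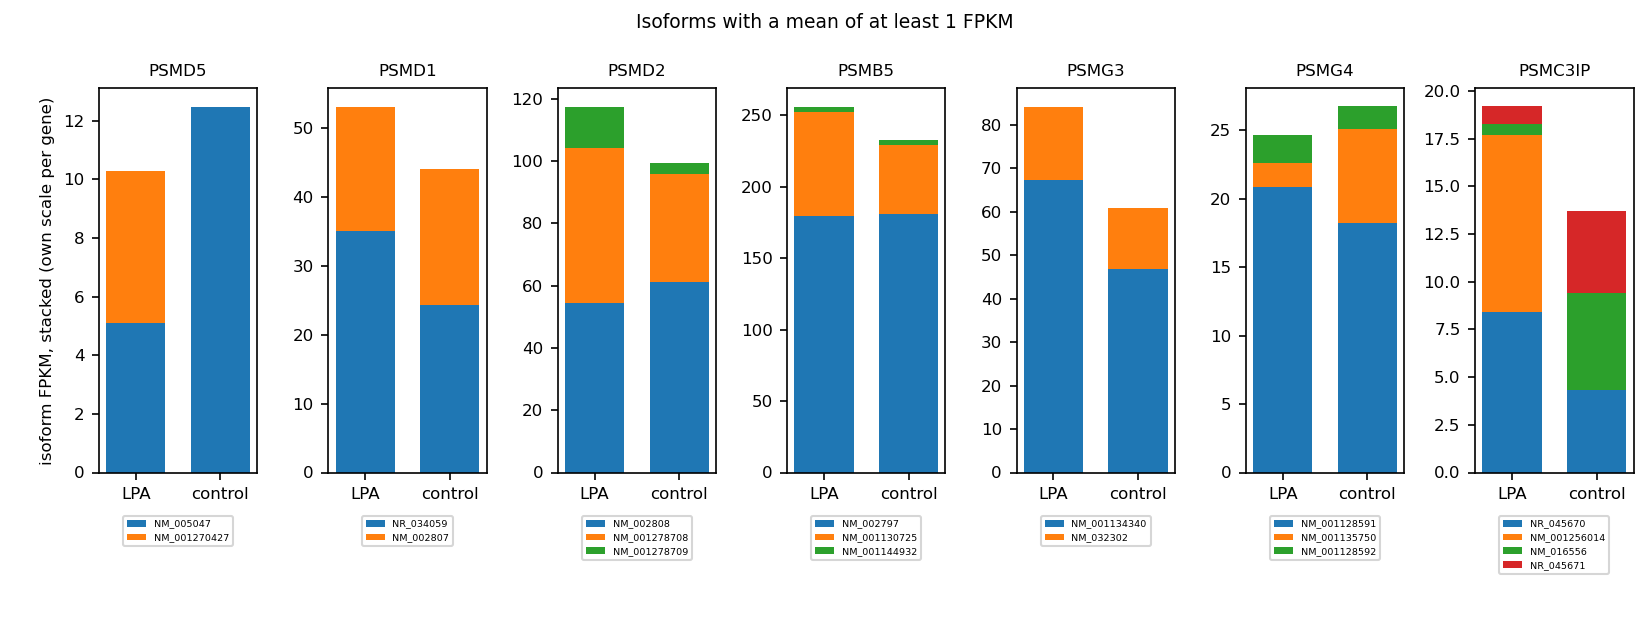
FPKM of isoforms with a mean of at least 1 FPKM, stacked per library (LPA left, control right), for 7 genes, each on its own scale from 0. PSMD5 shows 2 forms in the LPA and 1 visible form in the control library, and in PSMC3IP the leading form differs.

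Promoters were read for letters that known regulators of these genes bind. The RefSeq promoter table (GRCh38.p14) matched 43 of the 49 genes with 53 windows, and the 250 bases before each start were searched on both strands. The core of the antioxidant response element, TGACNNNGC, which NFE2L1 binds, was in 13 windows of 13 genes, or 24.5% of the windows, against 10.9% of 35116 windows of all genes. CCAAT, the box of NF-Y, was in 39.6% against 32.0%, the interferon element core GAAANNGAA in 9.43% against 6.88%, and the gamma interferon activation site TTCNNNGAA in 13.2% against 6.57%. Of the 13 genes with the antioxidant core 6 were higher and 7 lower in the LPA library, with a median log2 ratio of -0.01, and of the 27 other measured genes with a window 15 were higher and 12 lower, with a median of 0.08. A match is a description of letters only. NFE2L1 itself had 30.6 FPKM in the LPA and 28.1 FPKM in the control library.

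Shown are the 4 interferon-inducible genes measured here, whose log2 ratios went in opposite directions, and PSMD3 and PSMB3. The windows of PSMD3 (log2 ratio 0.21) and PSMB3 (0.14), both higher in the LPA library, hold the antioxidant core together with a CCAAT box. So do windows of PSMB9 (-0.55), PSMA4 (-0.32) and PSMG1 (-0.01), all lower in the LPA library. Each sequence shown is the 250 bases before the start, 5′ to 3′ on the gene's strand, with matches to any of the motifs in capitals. PSMB9 lies at chr6:32853942-32854191 on the plus strand, PSMB10 at chr16:67936851-67937100 on the minus strand, PSME1 at chr14:24135944-24136193 on the plus strand, PSME2 at chr14:24146611-24146860 on the minus strand, PSMD3 at chr17:39980557-39980806 and PSMB3 at chr17:38752491-38752740, both on the plus strand.
PSMB9: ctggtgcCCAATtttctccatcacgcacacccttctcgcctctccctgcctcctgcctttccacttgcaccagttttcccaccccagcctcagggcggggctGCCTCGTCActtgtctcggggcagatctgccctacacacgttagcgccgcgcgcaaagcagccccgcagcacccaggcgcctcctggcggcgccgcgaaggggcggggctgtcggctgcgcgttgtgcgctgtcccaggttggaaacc
PSMB10: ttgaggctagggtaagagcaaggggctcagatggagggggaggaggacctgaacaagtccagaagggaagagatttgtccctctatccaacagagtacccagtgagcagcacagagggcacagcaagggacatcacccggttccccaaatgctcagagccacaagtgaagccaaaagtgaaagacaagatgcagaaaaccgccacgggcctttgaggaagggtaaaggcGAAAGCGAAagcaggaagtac
PSME1: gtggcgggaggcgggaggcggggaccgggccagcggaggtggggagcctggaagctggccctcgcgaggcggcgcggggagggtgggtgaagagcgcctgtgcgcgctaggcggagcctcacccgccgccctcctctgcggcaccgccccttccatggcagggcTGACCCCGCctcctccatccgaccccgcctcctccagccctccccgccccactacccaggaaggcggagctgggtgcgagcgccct
PSME2: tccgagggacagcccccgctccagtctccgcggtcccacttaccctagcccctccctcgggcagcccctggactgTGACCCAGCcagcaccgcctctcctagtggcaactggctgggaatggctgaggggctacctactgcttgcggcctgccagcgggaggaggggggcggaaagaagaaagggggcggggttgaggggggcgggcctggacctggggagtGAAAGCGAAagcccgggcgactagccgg
PSMD3: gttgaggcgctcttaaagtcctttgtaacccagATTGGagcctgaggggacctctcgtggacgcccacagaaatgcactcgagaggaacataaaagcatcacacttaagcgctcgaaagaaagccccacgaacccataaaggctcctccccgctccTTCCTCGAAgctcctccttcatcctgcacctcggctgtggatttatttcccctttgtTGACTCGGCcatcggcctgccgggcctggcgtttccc
PSMB3: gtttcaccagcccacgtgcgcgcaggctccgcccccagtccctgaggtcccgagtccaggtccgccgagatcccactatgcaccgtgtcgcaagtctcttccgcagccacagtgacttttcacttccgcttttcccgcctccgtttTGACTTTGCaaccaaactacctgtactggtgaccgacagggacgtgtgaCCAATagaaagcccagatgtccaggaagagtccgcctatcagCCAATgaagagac
The interferon element core GAAAGCGAA stands 21 bases before the start of PSMB10 and 28 bases before that of PSME2, in the same letters, while PSMB10 was higher and PSME2 lower in the LPA library. The same letters stand 33 bases before the start of PSMG4, also lower. PSMB9 holds no match to it in this window but the antioxidant core on the opposite strand (GCCTCGTCA), 148 bases before the start. No motif matches overlap each other in these 6 windows.

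PSMB9 shares its promoter region with TAP1, a peptide transporter gene of antigen presentation that is read in the opposite direction. TAP1 had 28.02 FPKM in the LPA and 31.7 FPKM in the control library (log2 ratio -0.17). Among other genes of antigen presentation, named after their values were seen, B2M, the light chain of class I molecules, had 619 FPKM in the LPA and 935 FPKM in the control library (-0.60), past 1.5-fold before the adjustment for GC content and length and within it after (-0.43), and IRF1, a transcription factor that induces such genes, had 4.82 FPKM in the LPA and 5.43 FPKM in the control library (-0.14).

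Other genes of the pathway were read from 4 further lists. Of 12 proteasome partners outside the PSM symbols all were measured, 7 above and 5 below 0 (median 0.07), with 2 past 1.2-fold upward and 1 downward, where 12.6% and 14.5% of all genes were. ADRM1, a ubiquitin receptor of the 19S regulator, had 226 FPKM in the LPA and 186 FPKM in the control library (0.28), and PITHD1 32.1 and 26.5 FPKM (0.27); after the adjustment for GC content and length both were within 1.2-fold, at 0.25 and 0.19. UCHL5, the deubiquitinase that ADRM1 docks, had 10.1 and 14.9 FPKM (-0.51), past 1.2-fold, and had no GC value and so no adjusted ratio. POMP, the maturation factor of the core, had 134 and 148 FPKM (-0.14), and its ratio was above 0 after the adjustment (0.11). The median over the genes of this list with an adjusted ratio was then 0.15. None of 8 measured regulators of proteasome transcription passed 1.2-fold, where 27.1% of all genes did, from NGLY1, at 5.71 and 6.97 FPKM (-0.25), to NFE2L1 (0.12). Of 6 ubiquitin and E1 genes 5 were below 0 (median -0.12), where 49.8% of all genes were. Their median after the adjustment was -0.14. UBA6, an E1 enzyme, had 6.41 and 8.57 FPKM (-0.37), past 1.2-fold but within it after that adjustment (-0.17), and UBB had 1499 and 1460 FPKM (0.04). Of 11 shuttle and p97 genes 10 were above 0 (median 0.13), where 50.2% of all genes were. After the adjustment the median over those with an adjusted ratio was 0.07. FAF1, a p97 cofactor, had 24.0 FPKM in the LPA and 15.4 FPKM in the control library (0.61), past 1.5-fold, VCP, which encodes p97 itself, 64.4 and 62.2 FPKM, and FAF2, the lowest of the list, 15.6 and 15.9 FPKM.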

How the data were processed

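Poly-A RNA of 1 LPA-treated and 1 control HCT-116 library was used, grouped by sample titles. Per the submitters' processing notes, the authors used TopHat2 2.0.12, Cufflinks and Cuffdiff 2.2.0 with hg38; their settings and how libraries were scaled are not given in those notes. The deposited table holds FPKM per isoform with a lower and an upper bound, per the file headers. Per the labels, the library kit was TruSeq V2, which does not mark strand. The 16 isoforms with status HIDATA in the LPA library were treated as missing and the 11 with status FAIL kept as listed; none of either belongs to the genes described. FPKM were summed per symbol with pandas 2.3.3, a gene was measured at a mean of at least 1 FPKM, and log2 ratios used a pseudocount of 1. No test was possible with 1 library per group. Members and gene lists were chosen with earlier results of these data known. Genes named are all catalytic, activator and chaperone genes, those past 1.2-fold and the extremes of each role; other isoforms and lid genes were named after their values were seen. GC content came from GENCODE 29 transcripts, and the adjustment used lowess (statsmodels 0.14.6, fraction 0.3). One gene of the antigen presentation list, and with it the list's counts, is not reported here. The ratio script was tested on simulated data. What error the deposited bounds cover is not stated in the file; estimated fragment numbers bear on counting error only.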

Additional observations from a re-analysis of the deposited data

How the results depend on the processing

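No paired analysis was possible because each group holds 1 library, although both titles carry the number 3. A value counted as unchanged when it moved by less than 0.1 on the log2 scale, and a count when within 1.5 times. No called log2 ratio that had a value changed sign under the 12 alternatives run per gene; PSMA4 had none after adjustment for GC content and length, nor PSMB9 and PSMC3IP at a mean of at least 20 FPKM. The count of proteasome genes 1.5-fold lower, 0 in the report, was 1 with a pseudocount of 0.1, 1 with the leading isoform and 1 after adjustment for GC content and length; 1 gene was 1.5-fold higher with the leading isoform. After that adjustment 3 genes were 1.2-fold lower. The median of the other 19S base subunits was 0.083 with the leading isoform, and that of the 19S base chaperones -0.12 after the adjustment and -0.15 at a mean of at least 20 FPKM. Over all genes, 1.5-fold higher and lower counts were 281 and 372 with a pseudocount of 0.1, 70 and 41 with 5, 108 and 101 at a mean of at least 5 FPKM, 58 and 37 at 20, and 450 and 482 with the leading isoform. At 1.2-fold they were 791 and 795 with a pseudocount of 5 and 567 and 405 at 20 FPKM, and 1068 genes were lower at 5 FPKM. The cause was not tested; stricter minimums leave fewer genes. Signs of uncalled genes changed for PSMA5, PSMB6, PSMD12, PSMD4 and PSMD8 after the adjustment, for PSMB5, PSMD11, PSMD2 and PSMG4 with the leading isoform, and for PSMG1 with equal FPKM sums. Both isoforms of PSMD5 and that of PSMC3IP also passed 2-fold.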
